A study of Mus musculus with 4 samples.

Results

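The 28 genes described here encode the enzymes of cholesterol synthesis and the SREBP machinery that sets their transcription. They were taken as a list of gene symbols, and all 28 were found among the 27293 genes with a count in the deposited table. RNA was sequenced from the telencephalic tissue of C57BL/6 mouse embryos at embryonic day 13 (E13), from 2 ug of total RNA per library. There were 2 libraries with the genotype label WT and 2 with the label STINGf/f;Nestin-Cre, called cKO here. In this design Cre recombinase is meant to delete a floxed part of the STING gene. Cre was driven by the Nestin promoter, which is active in neural progenitors, so cells of other origin in the tissue, such as blood, may keep the gene. Whether a library came from 1 embryo or from several, and whether the WT embryos carried the floxed allele or Cre, is not given in the sources used here. The title of WT 2 carries "nes" where that of WT 1 carries "wt", which is not explained in the sources used here, so the genotype of WT 2 beyond its WT label is not known. Depth was close to equal, with 17209654 and 18533391 reads counted on genes in WT and 18237989 and 18091688 in cKO. Paired values of a group are given here with library 1 first.

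Cells build cholesterol from acetyl units by way of mevalonate, isoprenoid diphosphates, squalene and lanosterol. When sterols in the endoplasmic reticulum are low, SCAP carries the SREBP transcription factors to the Golgi, where a pair of proteases releases their active part, and INSIG proteins hold SCAP back when sterols are high. The embryonic brain makes most of its own cholesterol once the blood-brain barrier forms, and sterols are also needed for Hedgehog signalling and for the membranes of growing axons.

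SREBP factors act on promoters together with NF-Y, which binds the letters CCAAT, so the start regions of these genes were searched for both sets of letters. RefSeq windows from 250 bases before to 50 bases after a start (build GRCm38.p6) were found for 24 of the 28 genes. No window was found for Sqle, Fdft1, Fdps and Stard4, so these genes were not searched. At least 1 CCAAT, on either strand, lay in a window of 20 of these 24 genes (83.3%), against 41.1% of all 27025 genes with a window. Counted by window, the letters were found in 21 of 32 (65.6%), against 37.4% of all 32851 windows of the same length. A core of the sterol response element, TCACNCCAC on either strand, was found in 1 of the 24 genes (Hmgcs1, 4.17%), against 1.44% of all genes. A match here is only a match of letters, and windows this short leave out sites farther from the start. The background takes every gene with a window, expressed in this tissue or not, while all 28 members were expressed. Whether SREBP or NF-Y bound these windows was not tested. The 200 bases before the start are shown for 4 genes that differ in these letters, read 5′ to 3′ on the gene's strand with the matches in capitals (ATTGG is CCAAT on the other strand). Hmgcs1 (chr13:119690151-119690350, plus strand) has 1 sterol response element core and 2 CCAAT, Mvk (chr5:114444069-114444268, plus strand) has 5 CCAAT, Nsdhl (chrX:72918321-72918520, plus strand) has 2, and Mbtps2 (chrX:157598716-157598915, minus strand) has neither motif.
Hmgcs1: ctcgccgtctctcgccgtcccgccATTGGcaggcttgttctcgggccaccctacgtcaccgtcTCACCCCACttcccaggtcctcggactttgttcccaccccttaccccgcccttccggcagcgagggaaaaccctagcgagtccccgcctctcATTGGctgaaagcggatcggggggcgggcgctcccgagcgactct
Mvk: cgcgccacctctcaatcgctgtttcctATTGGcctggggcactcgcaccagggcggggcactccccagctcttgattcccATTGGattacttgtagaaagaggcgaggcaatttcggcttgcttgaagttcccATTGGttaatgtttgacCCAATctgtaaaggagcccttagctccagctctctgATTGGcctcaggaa
Nsdhl: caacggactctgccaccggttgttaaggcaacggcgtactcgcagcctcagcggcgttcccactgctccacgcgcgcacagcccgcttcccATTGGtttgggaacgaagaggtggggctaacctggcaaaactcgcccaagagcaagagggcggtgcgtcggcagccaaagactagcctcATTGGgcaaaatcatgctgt
Mbtps2: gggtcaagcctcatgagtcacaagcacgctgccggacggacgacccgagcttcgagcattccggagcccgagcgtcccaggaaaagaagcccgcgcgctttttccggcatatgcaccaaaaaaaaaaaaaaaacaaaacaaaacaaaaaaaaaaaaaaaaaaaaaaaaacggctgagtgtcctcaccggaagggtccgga

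The libraries were first compared for the deleted gene, for tissue markers and for sex-linked reads. STING, whose gene is named Tmem173 in the table, had 20 and 19 reads in WT and 18 and 22 in cKO. The gene-level count did not separate the labels (log2 fold change 0.022, standard error 0.45), and since it pools every exon and every cell of the tissue, the labels alone give the genotype. The 11 markers of telencephalic progenitors and neurons, with Tubb3 as the most abundant, were found in every library and summed to 5090 and 5812 CPM in WT and 5642 and 5040 in cKO, where CPM is the count scaled to a common, TMM-normalised library size. WT 1 stood apart in other cell types. Its 7 choroid plexus markers summed to 51.0 CPM, while WT 2 had 10.2 and the cKO libraries 6.50 and 8.62, with Otx2 as the most abundant and Folr1 at 0 counts in WT 2. Its 7 markers of meninges and mesenchyme, led by Col3a1, summed to 283.8 CPM, while WT 2 had 53.1 and the cKO libraries 75.9 and 39.96. The 6 blood markers, led by Hbb-y, summed to 869 CPM in WT 1, 398 in WT 2 and 328.5 and 509 in the cKO libraries. Of the 7 choroid plexus markers, 4 failed the filter on low counts and 3 (Aqp1, Htr2c and Otx2) were called lower in cKO, as were 2 of the 6 tested of meninges and mesenchyme, where Twist1 failed the filter, and 0 of the 6 of blood, against 0.669% of all genes tested. Markers that passed the filter only through their high level in WT had to differ, so these counts are a description. Markers of endothelium summed to 184.5 and 136.5 CPM in WT and 120.2 and 118 in cKO, those of microglia to 39.2 and 27.7 in WT and 25.1 and 31.6 in cKO, and those of the oligodendrocyte lineage to 93.4 and 81.8 in WT and 68.2 and 89.3 in cKO, with 0 genes called in each. All 6 endothelial markers had a log2 fold change below 0. Their groups did not overlap in 3 (Flt1, Cdh5 and Kdr), against 10.8% of all genes tested with cKO below WT. The unadjusted p in edgeR's fit was 0.0217 for Flt1 and 0.0498 for Cdh5, against 1.23% of all genes under 0.05. In these 3 genes WT 1 was the highest library. Flt1 had 27.84 and 19.88 CPM in WT and 14.97 and 15.73 in cKO. Cdh5 had 38.65 and 25.25 CPM in WT and 22.02 and 22.05 in cKO. WT 2 had 0 counts on the 4 Y-linked genes Uty, Kdm5d, Eif2s3y and Ddx3y, while WT 1 had 2735 and the cKO libraries 3002 and 1848. The sum over the 28 cholesterol and SREBP genes was 2352 and 2315 CPM in WT and 2357 and 2275 in cKO. Its highest library was thus 1.04 times its lowest. The same ratio was 1.15 for the telencephalic markers and 1.12 for the fatty acid arm described below. It was 7.83 for choroid plexus and 7.10 for meninges and mesenchyme. A sum can hide opposite shifts of single genes. In bulk tissue, fewer cells of a type and less RNA per cell cannot be told apart.

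**Figure D1:**
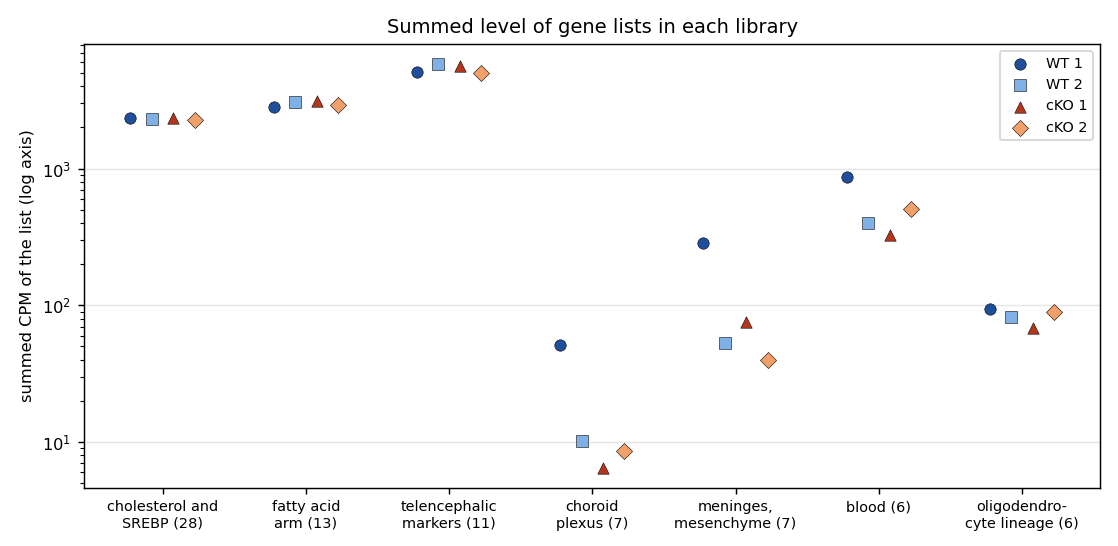
Summed normalised read count (CPM, log axis) of each gene list in the 4 libraries, with the number of genes in brackets. The 28 cholesterol and SREBP genes lie between 2275 and 2357 CPM in all 4 libraries, while WT 1 lies above the other libraries for choroid plexus, meninges and mesenchyme and blood.

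Levels of different genes were compared as CPM per kilobase of annotated exon, averaged over the 4 libraries. Acat2, a thiolase that joins acetyl units, was the highest of the 28 at 62.2 CPM per kilobase. It was followed by Srebf2, the main transcription factor for the sterol enzymes, at 53.5 and by Hmgcs1, the HMG-CoA synthase, at 46.8. The libraries of Acat2 ran from 60.7 to 63.5 CPM per kilobase, above the range of 49.4 to 59.5 for Srebf2, which overlapped that of 36.4 to 59.4 for Hmgcs1. Fdft1, the squalene synthase, came next at 40.7 and Cyp51, the lanosterol demethylase, at 31.4. The lowest were Hsd17b7, a sterol ketone reductase, at 3.46, Mbtps2, the second SREBP protease, at 2.81, and Fdps, the farnesyl diphosphate synthase, at 0.729 CPM per kilobase. Fdps is overlapped on its own strand by the gene model Gm43738, which has no row in the table, so its count of 48 to 64 reads per library is uncertain. The same holds for Mbtps2, overlapped by Yy2, which also has no row, and for Tm7sf2, overlapped by Vps51 at 766 to 1020 reads. Of the 28 genes, 12 are overlapped by another gene on the opposite strand and 6 on their own strand. The strand setting of the counting is not given in the sources used here. The opposite-strand genes include Rai1 at Srebf1, with 3451 to 3868 reads per library, and Arid4b at Ggps1, with 591 to 1450.

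The question put to the genotypes was whether expression differed between cKO and WT, and none of the cholesterol and SREBP genes was called different. All 28 passed the filter on low counts and were tested in the fit across 16145 genes. The study's thresholds ask for an unadjusted p up to 0.05 together with a 2-fold change or more. By edgeR's quasi-likelihood test 0 of the 28 genes met them, against 131 of all genes tested (0.811%), of which 108 were lower (0.669%) and 23 higher (0.142%) in cKO. At that background share 0 is the usual count for a list of 28. An unadjusted p under 0.05 was found for 0 of 28 members, against 1.23% of all genes, and DESeq2's Wald test also gave 0. An adjusted p under 0.05 was found for 0 members and 0 of all genes (0%), and the smallest adjusted p of a member was 0.9999 (edgeR, Benjamini-Hochberg over all genes). The log2 fold changes of the 28 genes ran from -0.36 in Mbtps2 to 0.38 in Ebp, with 16 above and 12 below 0. Their median was 0.017, against -0.0094 for all genes tested. Both cKO libraries lay above both WT libraries in 3 members (Pmvk, Nsdhl and Ebp), against 11% of all genes tested, and below them in 0, against 10.8%.

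A p over the threshold does not show that values are equal, so the 95% interval of each difference was taken from the fit. The interval lay within a 2-fold change in either direction for 27 of the 28 genes, against 70.2% of all genes tested. The exception was Mbtps2, with a lower bound of -1.03 on the log2 scale. For 19 members the interval lay within 1.5-fold, and the share of all genes at that bound was not computed. The narrowest intervals belonged to abundant genes. For Acat2 the interval ran from a ratio of 0.799 to 1.26, and for Mbtps1 from 0.813 to 1.28. The median distance from the estimate to a bound was 0.41 on the log2 scale over the members and 0.51 over all genes tested. With 2 libraries per group, these intervals rest on a spread shared across genes, and no permutation of the labels could give a small p.

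**Figure D2:**
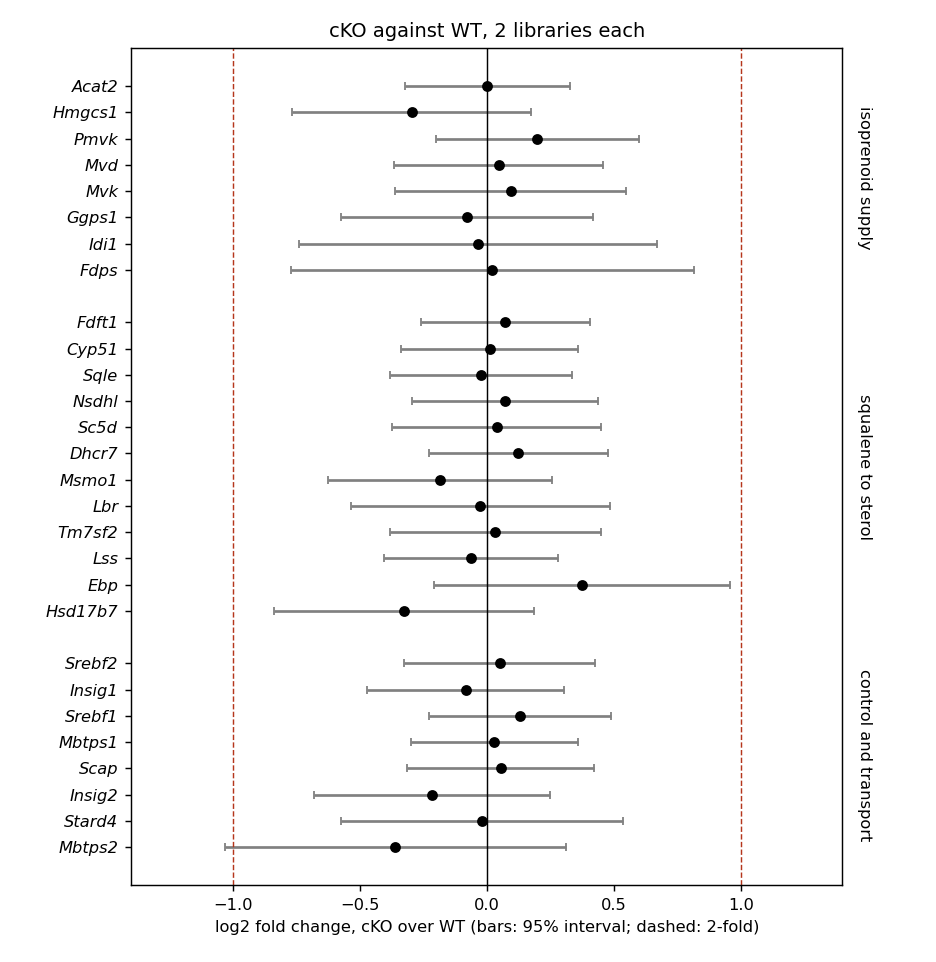
Log2 fold change (cKO over WT, 2 libraries each) of the 28 genes, grouped by step, with 95% intervals as bars and dashed lines at a 2-fold change. All 28 intervals cross 0, and that of Mbtps2 alone crosses a dashed line.

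The 8 genes that supply isoprenoid units summed to 634 and 540.5 CPM in WT and 581 and 518 in cKO. The sum of cKO 1 lay between the WT sums and that of cKO 2 below them. Of the 8 genes, 5 had a log2 fold change above 0 and 3 below, with a median of 0.012. Hmgcs1 (ENSMUSG00000093930, chromosome 13, 119690379 to 119708260, plus strand) makes HMG-CoA for the mevalonate pathway. Of the 24 genes searched, it was the 1 with the sterol response element core in its window. It had 273 and 201 CPM in WT and 219 and 167 in cKO. The highest and the lowest library thus carried different labels, but cKO 1 lay above WT 2 and the groups overlapped. The mean was 237 ± 50.8 CPM in WT and 193 ± 36.3 in cKO (SD, n = 2 each). The log2 fold change was -0.30 (standard error 0.20), with an unadjusted p of 0.185 in edgeR's fit across all genes, and it was -0.060 without WT 1, -0.10 without cKO 2, -0.49 without WT 2 and -0.50 without cKO 1. Acat2 showed the least spread of the 28, at 161 and 154.5 CPM in WT and 160.5 and 156 in cKO. Its estimated log2 fold change was 0.0028 (standard error 0.14, unadjusted p of 0.985 in edgeR's fit). Pmvk, the phosphomevalonate kinase, had 32.6 and 33.1 CPM in WT and 34.9 and 40.5 in cKO. The groups did not overlap, but cKO 1 was close to WT, and the log2 fold change was 0.20 (standard error 0.17, unadjusted p of 0.284 in the same fit). It was 0.10 without cKO 2 and 0.30 without cKO 1.

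The other enzymes of this step differed more between the cKO libraries than between the groups. Mvk, the mevalonate kinase, had 41.2 CPM in WT 1 and 39.9 in WT 2, but 36.3 in cKO 1 and 50.2 in cKO 2. Both WT libraries lay between the cKO libraries. Mvd, the mevalonate diphosphate decarboxylase, had 36.2 and 37.5 CPM in WT and 34.3 and 41.9 in cKO. Its WT libraries also lay between cKO 1 and the higher cKO 2. Idi1, which isomerises isopentenyl diphosphate, went the other way, with 27.95 and 26.3 CPM in WT and 35.4 and 17.5 in cKO. Its highest and lowest libraries were both cKO, at a ratio of 2.02, the widest of the 28 genes, so its log2 fold change of -0.036 (standard error 0.31) averages a pair of unlike libraries. Ggps1, which makes geranylgeranyl diphosphate for protein prenylation, had 59.0 CPM in WT 1 and 57.2 in cKO 1, against 45.2 in WT 2 and 41.5 in cKO 2. Its level split the libraries within each group and not between the groups. Fdps had 3.11 and 2.99 CPM in WT and 3.50 and 2.69 in cKO.

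The 12 genes from squalene to cholesterol summed to 860 and 870 CPM in WT and 904 and 837 in cKO. The WT sums lay between the cKO sums. The log2 fold change was above 0 in 7 of the 12 genes and below in 5, with a median of 0.022. Fdft1 (ENSMUSG00000021273, chromosome 14, 63145150 to 63179578, minus strand), which commits isoprenoids to sterols, had 160 and 175 CPM in WT and 172 and 180 in cKO, giving a log2 fold change of 0.074 (standard error 0.14, unadjusted p of 0.624 in edgeR's fit). It was 0.011 without WT 1 and 0.15 without WT 2. Cyp51 (ENSMUSG00000001467, chromosome 5, 4081145 to 4104746, minus strand) had 140 and 136 CPM in WT and 150 and 129 in cKO, giving a log2 fold change of 0.011 (standard error 0.15, unadjusted p of 0.943 in the same fit). Both genes overlap a gene on the opposite strand that is also expressed, Ctsb and Akap9. Sqle, the squalene epoxidase, had 137 and 156 CPM in WT and 154 and 135 in cKO, so the groups spanned nearly the same range. Lss, the lanosterol synthase, varied little, from 67.2 CPM in cKO 2 to 73.3 in WT 2.

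The genes with the largest estimates in this step were those with fewer reads. Ebp (ENSMUSG00000031168, chromosome X, 8185329 to 8193512, minus strand), the sterol isomerase, had 203 and 164 reads in WT and 216 and 266 in cKO, which is 11.7, 8.91, 11.8 and 14.9 CPM. Both cKO libraries lay above both WT libraries, but WT 1 and cKO 1 were nearly equal. The mean was 10.3 ± 1.96 CPM in WT and 13.3 ± 2.18 in cKO (SD, n = 2 each), a log2 fold change of 0.38 (standard error 0.25, unadjusted p of 0.175 in edgeR's fit across all genes) that was 0.20 without WT 2, the library with no Y-linked reads, 0.21 without cKO 2, 0.58 without WT 1 and 0.54 without cKO 1. The other X-linked sterol gene, Nsdhl, a dehydrogenase whose groups also did not overlap, had 43.0 and 41.7 CPM in WT and 44.6 and 44.4 in cKO. Hsd17b7 (ENSMUSG00000026675, chromosome 1, 169949535 to 169969241, minus strand) had 17.4 and 21.9 CPM in WT and 17.4 and 13.99 in cKO. The levels of WT 1 and cKO 1 were almost the same, and the log2 fold change of -0.33 (standard error 0.22, unadjusted p of 0.181 in the same fit) was -0.13 without WT 2, -0.16 without cKO 2, -0.48 without WT 1 and -0.49 without cKO 1.

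The other sterol enzymes again differed as much between libraries of a group as between the groups, or more. Msmo1, a sterol methyl oxidase, had 75.3 and 60.1 CPM in WT and 67.1 and 52.2 in cKO. In both groups the library numbered 1 was the higher. Sc5d, a sterol desaturase, had 61.8 and 58.4 CPM in WT and 70.01 and 53.6 in cKO, and Lbr, a lamin receptor with sterol reductase activity, had 42.3 and 39.6 CPM in WT and 48.5 and 32.0 in cKO. For both, the WT libraries lay between the cKO libraries, with cKO 2 as the lowest. Tm7sf2, which has the same reductase activity as Lbr, had cKO 2 as the highest library instead, at 33.8 and 35.3 CPM in WT and 31.9 and 38.8 in cKO. Dhcr7, the reductase of the last step and the gene of Smith-Lemli-Opitz syndrome in humans, had 69.5 and 63.4 CPM in WT and 69.0 and 75.8 in cKO, giving a log2 fold change of 0.12 (standard error 0.15), which ran from 0.068 without cKO 2 to 0.19 without cKO 1.

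**Figure D3:**
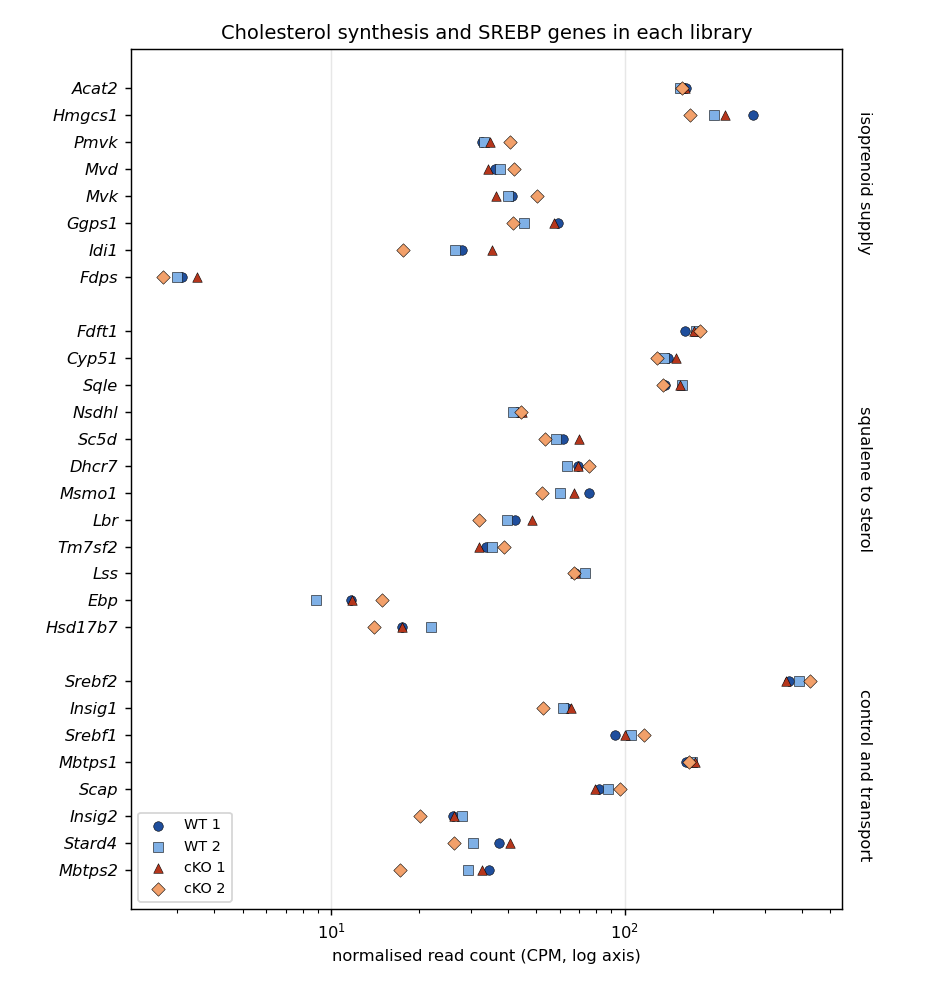
Normalised read count (CPM, log axis) of each of the 28 genes in the 4 libraries, grouped by step and ordered within a step by level per kilobase of exon. In 15 of the 28 genes cKO 2 is the lowest library and in 10 it is the highest.

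The control genes showed no shift of the SREBP machinery between the labels that was larger than the spread between libraries. The 8 genes of control and transport summed to 858 and 904 CPM in WT and 872 and 921 in cKO, with 4 log2 fold changes above 0, 4 below and a median of 0.0057. Srebf2 (ENSMUSG00000022463, chromosome 15, 82147181 to 82205379, plus strand) had 362 and 393 CPM in WT and 355 and 427 in cKO. Both the lowest and the highest library were cKO. The mean was 377 ± 22.0 CPM in WT and 391 ± 51.4 in cKO (SD, n = 2 each), a log2 fold change of 0.051 (standard error 0.16, unadjusted p of 0.764 in edgeR's fit across all genes). Srebf1, which codes for the factor that acts more on fatty acid synthesis, had 1608 and 1928 reads in WT and 1830 and 2073 in cKO, with a log2 fold change of 0.13 (standard error 0.16, unadjusted p of 0.422 in the same fit). It was 0.034 without cKO 2, 0.044 without WT 1 and 0.24 without WT 2 or without cKO 1. Scap, the escort of both factors, had 81.7 and 87.3 CPM in WT and 79.2 and 96.3 in cKO, with a log2 fold change of 0.055 (standard error 0.16, unadjusted p of 0.739 in the same fit). All 3 genes had their highest level in cKO 2, and their groups overlapped.

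Insig1, itself a target of SREBP and often read as a gauge of its activity, had 63.5 and 61.6 CPM in WT and 65.5 and 52.7 in cKO. Only cKO 2 departed from the others, and the log2 fold change was -0.083 (standard error 0.17, unadjusted p of 0.636 in edgeR's fit). Insig2, which is less dependent on SREBP, had 25.9 and 27.97 CPM in WT and 26.3 and 20.1 in cKO, with a log2 fold change of -0.22 (standard error 0.20, unadjusted p of 0.316 in edgeR's fit across all genes) that was -0.023 without cKO 2 and -0.42 without cKO 1. For Insig2, cKO 1 lay inside the WT range and cKO 2 below it. The protease genes differed from each other in this respect. Mbtps1, the first protease, was steady at 161 and 170 CPM in WT and 173 and 165 in cKO, giving a log2 fold change of 0.030 (standard error 0.14). Mbtps2 (ENSMUSG00000046873, chromosome X, 157535371 to 157598715, minus strand) had 34.4 and 29.3 CPM in WT and 32.5 and 17.18 in cKO. A single library, cKO 2, set its log2 fold change of -0.36 (standard error 0.29, unadjusted p of 0.251 in the same fit), which was 0.042 without cKO 2 and -0.89 without cKO 1. Stard4, a cytosolic sterol carrier, had 37.3 and 30.5 CPM in WT and 40.7 and 26.2 in cKO, so the WT libraries again lay between the cKO libraries.

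The 28 genes were next compared library by library, as log2 ratios of CPM with a pseudocount of 1, for which a pair of libraries gives no test. Between the libraries of 1 group, cKO 2 and cKO 1 differed more than WT 2 and WT 1. The median size of the ratio over the 28 genes was 0.28 between the cKO libraries and 0.10 between the WT libraries, and over all genes tested it was 0.26 and 0.16. Between the cKO libraries the ratios ran from -0.98 in Idi1 to 0.46 in Mvk, with a median of -0.13, against 0.016 for all genes. Between cKO 1 and WT 1, which carry different labels, the median size was 0.087, and between cKO 2 and WT 2 it was 0.179, so the former pair differed less and the latter more than the WT libraries did from each other. The library cKO 2 was the lowest of the 4 in 15 of the 28 genes, against 33.4% of all genes tested, and the highest in 10, against 33.6%.

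The direction in which cKO 2 departed followed the base composition of the transcript. The GC content of the longest transcript ran from 39.96% in Mbtps2 to 59.1% in Scap, with a median of 48.7% over the 28 genes and 49.6% over all genes tested. Of the 14 members with the lowest GC content, up to 48.6%, all 14 were lower in cKO 2 than in cKO 1, with a median log2 ratio of -0.37, and 75.6% of all genes in that GC range were lower as well. Of the 14 with the highest, 10 were higher in cKO 2 (71.4%), with a median of 0.21, against 73.8% of all genes in that range. Idi1, Mbtps2, Stard4, Lbr and Ggps1 belong to the first group, and Mvk, Mvd, Scap and Srebf2 to the second. Across the 28 genes, Spearman's rho between GC content and the ratio of cKO 2 to cKO 1 was 0.901, and across 16120 genes it was 0.634. For WT 2 over WT 1 it was 0.494 and 0.159, and for cKO 1 over WT 1 it was -0.146 and -0.189. These are descriptions across genes of the same libraries, which are not independent replicates. With transcript length, rho for cKO 2 over cKO 1 was -0.341 over the members and -0.341 over all genes. Whether the base composition trend arose in the tissue or in the libraries was not tested.

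**Figure D4:**
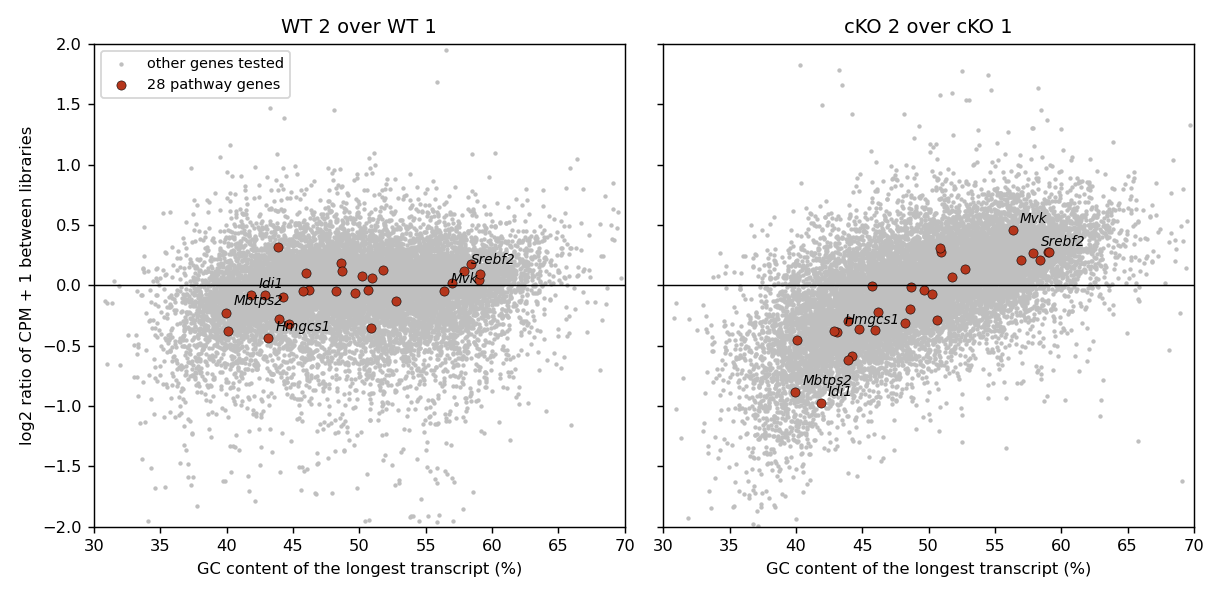
Log2 ratio of CPM + 1 between the libraries of 1 group against the GC content (%) of the longest transcript, for WT 2 over WT 1 (left) and cKO 2 over cKO 1 (right), with the 28 genes in red over all other genes tested; 55 genes lie outside the axes. The points of the right panel slope upward (rho 0.901 over the 28 genes), with Mbtps2 and Idi1 low and Mvk high.

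The same pattern was present in the difference between the genotypes. Spearman's rho between GC content and the log2 fold change of cKO over WT was 0.755 over the 28 genes and 0.266 over all genes tested. Over the 28 genes it was -0.379 without cKO 2, 0.263 without WT 1, 0.838 without WT 2 and 0.871 without cKO 1. With offsets that also removed each library's trend with GC content, an alternative chosen after the pattern was seen, it was 0.223. With those offsets the estimate of Mbtps2 moved from -0.36 to -0.22, that of Hmgcs1 from -0.30 to -0.21, that of Hsd17b7 from -0.33 to -0.26, that of Ebp from 0.38 to 0.35 and that of Ggps1 from -0.079 to 0.10. None of the 28 genes was called at the study's thresholds with those offsets either, against 138 of all genes.

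The neighbouring pathways were described with lists of 50 other genes. Of these, 49 were tested and 0 were called at the study's thresholds, against 0.811% of all genes tested. At that background share 0 is the usual count for 49 genes or for a shorter list. In the fatty acid arm, which SREBP1 controls, 0 of 13 genes were called, against 0.811% of all genes tested. Of its log2 fold changes 9 were above 0 and 4 below, and the median was 0.055, against -0.0094 for all genes. Its most abundant gene, Scd2, the stearoyl-CoA desaturase of the brain, had 17168 and 19563 reads in WT and 21075 and 17458 in cKO, and a log2 fold change of 0.055 (standard error 0.17). The groups overlapped. The extremes of this arm were its paralog Scd1 at -0.31 (292 and 313 reads in WT and 272 and 220 in cKO) and Me1, the malic enzyme, at 0.24 (194 and 271 reads in WT and 284 and 268 in cKO). Neither gene overlapped between the groups in CPM, which held for 21.8% of all genes tested, counting either direction. In the whole arm the groups were separate in 2 genes with cKO lower and in 1 with cKO higher. The unadjusted p in edgeR's fit was 0.174 for Scd1 and 0.326 for Me1. The estimate of Scd1 was -0.17 without cKO 2, and that of Me1 was 0.052 without WT 1 and 0.46 without WT 2.

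Among 13 genes of sterol export, storage and transport, 12 were tested and 0 were called, against 0.811% of all genes tested. Of their log2 fold changes 8 were above 0 and 4 below, with a median of 0.062, against -0.0094 for all genes. Abca1, which exports cholesterol to lipoproteins and is induced by oxysterols, gave the lowest estimate of any gene in these lists. It had 484 and 387 reads in WT and 355 and 239 in cKO. Each cKO library thus lay below each WT library, as in 10.8% of all genes tested. The log2 fold change was -0.57 (standard error 0.25), the unadjusted p was 0.0497 in edgeR's fit and the adjusted p = 0.9999, and the estimate was -0.36 without WT 1, -0.32 without cKO 2, -0.75 without WT 2 and -0.87 without cKO 1. The fold change was under 2, and Abca1 was the 1 gene of the 49 with an unadjusted p under 0.05, against 1.23% of all genes tested. That p did not stay under 0.05 in every fit, and was 0.0530 with RLE normalization, 0.0561 with at least 10 counts in each library, 0.320 without WT 1 and 0.170 without cKO 2, while it was 0.0458 with upper-quartile normalization, 0.0495 with DESeq2, 0.0164 with no filter, 0.0121 with the replicate block, 0.0284 with GC-corrected offsets, 0.0341 without WT 2 and 0.00444 without cKO 1. The gene of the list with the highest CPM, not divided by length, was the lipoprotein and reelin receptor Lrp8, at a log2 fold change of 0.034, and the highest estimate was 0.19 in Nr1h2, which encodes the oxysterol receptor LXR beta. Ch25h, the cholesterol hydroxylase, had 1 and 3 reads in WT and 0 in both cKO libraries and was not tested.

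The 11 genes that use isoprenoids had 0 calls, against 0.811% of all genes tested. The log2 fold change was above 0 in 9 of these genes and below in 2, with a median of 0.10, against -0.0094 for all genes. Dhdds, a subunit of the dolichol-making enzyme and the most abundant of them, was at 0.11, its partner Nus1 was the lowest at -0.19, and Rabggta, a subunit of the enzyme that prenylates Rab proteins, was the highest at 0.22. The estimate of Dhdds ran from 0.020 without cKO 2 to 0.21 without cKO 1, and that of Rabggta from 0.12 without WT 1 or without cKO 2 to 0.35 without WT 2. The 7 genes of INSIG and SREBP turnover had 0 calls, against the same 0.811% of all genes tested. Of their log2 fold changes 4 were above 0 and 3 below. Rnf139, a ubiquitin ligase of the endoplasmic reticulum, was the lowest at -0.11, with 649 and 624 reads in WT and 782 and 413 in cKO, and Aup1 was the highest at 0.23, with 845 and 879 reads in WT and 833 and 1201 in cKO. In Rnf139 cKO 2 was the lowest library and in Aup1 the highest, as in the pathway genes above. The 6 genes of acetyl units and electron donors also had 0 calls, against 0.811% of all genes tested. They had 5 log2 fold changes above 0 and 1 below, with a median of 0.11, against -0.0094 for all genes. Cyb5b, a cytochrome, was the most abundant at 0.127 and Cyb5a the highest at 0.135. Cyb5r3, the reductase that serves both, was the lowest at -0.14. The estimate of Cyb5r3 was -0.016 without cKO 1, -0.076 without WT 1 and -0.26 without cKO 2. None of the 5 lists held a gene whose estimate reached a 2-fold change.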

How the data were processed

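The authors sequenced 4 libraries (Illumina HiSeq) and deposited raw read counts per gene. The submitters' processing notes name Bowtie2 2.2.3, TopHat2 2.0.12, HTSeq 0.6.0 and the build mm9, but gene positions in the table match GRCm38 (GENCODE M21) for 97.3% of genes, so GRCm38 was used. The read filters and strand setting are not given in the sources used here. Of 27304 rows, 11 blank rows (0.0403%) were left out. A second deposited table, of WT 1 and cKO 1 only, and the authors' own fold changes and p-values were not used. The members and lists were chosen with earlier results of these data known, and some genes of the pathway and its lists are not reported here.

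The test was the quasi-likelihood test of edgeR 4.0.16 (R 4.3.3) without covariates, after filterByExpr and TMM, with Benjamini-Hochberg adjustment over 16145 genes. The thresholds were a fold change of at least 2 with an unadjusted p of at most 0.05, and an adjusted p under 0.05. The 95% intervals use the standard error from the quasi-F statistic. CPM were scaled by TMM, and levels between genes were divided by exon length. At these depths 3 counts correspond to 0.162 to 0.174 CPM. DESeq2 1.42.0 was an alternative. Values in every library, a fold change, its standard error and p are given for Srebf1, Srebf2, Scap, Insig1, Insig2, the 2 genes with the highest level per length in each step, the 6 members with the smallest p and any member called. In each other list the gene with the highest mean CPM, those with the largest and smallest fold change and any gene called were chosen to be named. Whether libraries of a group came from separate litters is not stated, so p-values measure the spread between these libraries.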

Additional observations from a re-analysis of the deposited data

How the results depend on the processing

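No alternative gave a member a call at the study's thresholds or an adjusted p under 0.05. Members at an unadjusted p under 0.05 numbered 0 to 5 with each library left out, with 5 without cKO 1 (Hmgcs1, Idi1, Msmo1, Insig2 and Mbtps2) and 1 (Idi1) without cKO 2, which is 17.9% and 3.57% of the members, against 15.03% and 2.67% of all genes in the same fits. In those fits the lone library of a group is assumed to vary like the others. The members' median log2 fold change, 0.017, ran from -0.083 (without cKO 1) to 0.061 (without cKO 2). Over all genes, 131 met the thresholds, against 405 with every gene tested that had a count, 72 of the fewer genes whose every library had 10 counts or more, 65 with DESeq2, 14 at an unadjusted p of at most 0.01, which is a subset, 138 with GC-corrected offsets and from 104 (without WT 1) to 531 (without cKO 1) with each library left out. Genes at an adjusted p under 0.05 numbered 65 with no filter and, with each library left out, 0 (without cKO 2), 7 (without WT 1), 105 (without cKO 1) and 116 (without WT 2). Apart from the filters, the cause was not tested. Both groups use the numbers 1 and 2, no source ties a number to a litter or batch, and deviations of same-numbered libraries correlated at 0.139 across genes. With the number as a replicate block, 208 genes met the thresholds, 5 had an adjusted p under 0.05, no member did either, and the members' median was 0.0093.

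The sign of the log2 fold change held for all 28 members under the other normalizations, filters, DESeq2 and the replicate block. With GC-corrected offsets, chosen after seeing the data, it turned for 5 genes near 0, to 0.040 in Idi1, -0.0062 in Acat2, 0.036 in Stard4, 0.023 in Lbr and 0.10 in Ggps1. With each library left out, estimates that changed sign ran from -0.12 to 0.088 in Sqle, -0.18 to 0.21 in Fdps, -0.63 to 0.40 in Idi1, -0.089 to 0.19 in Mvd, -0.14 to 0.31 in Mvk, -0.12 to 0.013 in Lss, -0.10 to 0.13 in Cyp51, -0.16 to 0.23 in Sc5d, -0.37 to 0.0013 in Msmo1, -0.25 to 0.079 in Insig1, -0.077 to 0.18 in Srebf2, -0.079 to 0.19 in Scap, -0.10 to 0.17 in Tm7sf2, -0.016 to 0.036 in Acat2, -0.37 to 0.28 in Stard4, -0.35 to 0.26 in Lbr, -0.33 to 0.15 in Ggps1, -0.0088 to 0.082 in Mbtps1 and -0.89 to 0.042 in Mbtps2, and in the other lists from -0.067 to 0.18 in Scd2, -0.059 to 0.41 in Nr1h2, -0.066 to 0.15 in Lrp8, -0.53 to 0.11 in Nus1, -0.62 to 0.28 in Rnf139, -0.068 to 0.48 in Aup1 and -0.11 to 0.36 in Cyb5a.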
